A study of Mus musculus with 12 samples.

Results

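The widest peaks of H3K9 methylation in mouse adipose tissue were selected on their width. They were taken from 8 lists of ChIP-seq peaks, 1 for each diet, tissue and mark, as every autosomal peak of at least 4000 bp with a score of at least 50. This gave 543 wide peaks of 218363, which merged into 227 wide regions where they overlapped by 1 bp or more. All peaks of the 8 lists on the same chromosomes and at the same score merged into 86662 regions. The score is taken as the negative log10 of a p-value, multiplied by 10, since each list stopped at a round floor, 50 or 50.01 in 6 lists and 30 in both WAT lists of SCD-fed mice.

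The lists came from wild-type C57BL/6J mice that were put on a high-fat diet (HFD) or a standard chow diet (SCD) at 6 weeks of age and fed it for 12 weeks. Chromatin was fixed (1% formaldehyde, 8 min) from heat-producing brown adipose tissue (BAT) and from fat-storing white adipose tissue (WAT) taken under the skin. Of the 12 libraries 4 were inputs without a list here. No group had more than 1 library. The number of mice behind a library is not given in the sources used here, and the tissue labels could not be checked against marker expression. The marks are named as the libraries are labelled, since the methods describe the H3K9me2 antibody as raised to the trimethyl form and the H3K9me3 antibody as raised to the dimethyl form.

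H3K9me2 is laid down mainly by G9a and GLP over silent stretches of gene-bearing chromatin. H3K9me3 is laid down by the SUV39H enzymes at satellite repeats near centromeres and by SETDB1 at transposable elements, and it is bound by HP1 proteins. Both marks can extend over long domains, and arrays of repeated sequence can be of similar length.

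Sequences are shown here from tandem repeats and from GC-rich single-copy regions, 2 of the 4 kinds into which the wide regions are split, because these made up most of them. The tandem repeats come first. A unit of 208 bases is shown from 2 regions that were wide in all 8 lists, at chr2:80652157-80652364 (minus strand) and chr3:6307003-6307210 (plus strand) of the NCBIM37 assembly, which has the chromosome lengths of mm9. Capitals mark bases of the chromosome 3 unit that differ from the chromosome 2 unit.
Unit on chromosome 2: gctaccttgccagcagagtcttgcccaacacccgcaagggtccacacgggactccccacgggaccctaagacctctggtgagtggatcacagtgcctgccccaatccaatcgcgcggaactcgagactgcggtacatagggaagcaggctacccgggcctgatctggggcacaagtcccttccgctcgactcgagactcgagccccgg
Unit on chromosome 3: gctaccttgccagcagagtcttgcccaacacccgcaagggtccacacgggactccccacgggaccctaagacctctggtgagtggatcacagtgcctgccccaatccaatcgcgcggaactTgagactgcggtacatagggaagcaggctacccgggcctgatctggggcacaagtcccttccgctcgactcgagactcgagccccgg
The pair differed at 1 of 208 bases (99.5% identity), and the closest unit of the region at chr3:90898753-90904430 also differed from the chromosome 2 unit at 1 base.

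A shorter unit of 54 bases came from an intron of Stam2, which encodes a protein of endosomal sorting, at chr2:52552003-52552056 (minus strand). It occurred 108 times without a change within the region of 6643 bp.
Stam2 intron unit: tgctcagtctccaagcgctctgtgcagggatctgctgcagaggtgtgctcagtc
A repeat that codes for protein is shown from Ahnak2, which encodes a large scaffold protein, at chr12:114014498-114014647 (minus strand). Its period of 519 bases is 173 codons of 3 bases.
Ahnak2 coding stretch: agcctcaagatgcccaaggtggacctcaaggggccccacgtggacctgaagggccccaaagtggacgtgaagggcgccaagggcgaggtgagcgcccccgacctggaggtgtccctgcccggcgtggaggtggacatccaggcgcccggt
The box C/D small nucleolar RNA gene SNORD116, of the imprinted region beside Snrpn, is shown because the larger of 2 wide regions over its copies was wide only in SCD lists of WAT. It lies at chr7:67004100-67004193 (minus strand).
SNORD116: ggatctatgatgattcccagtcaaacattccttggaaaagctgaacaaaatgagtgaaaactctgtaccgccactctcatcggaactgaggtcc

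The GC-rich single-copy regions are shown by the 200 bases upstream of the start of Irs1 (chr1:82287992-82288191, minus strand) and Irs2 (chr8:11008459-11008658, minus strand), the adaptors that carry the signal of the insulin receptor. Capitals mark CpG dinucleotides.
Irs1 upstream: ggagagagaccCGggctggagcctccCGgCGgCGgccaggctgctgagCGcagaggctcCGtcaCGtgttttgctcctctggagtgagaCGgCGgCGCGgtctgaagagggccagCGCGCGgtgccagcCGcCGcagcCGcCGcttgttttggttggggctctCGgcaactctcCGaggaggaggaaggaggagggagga
Irs2 upstream: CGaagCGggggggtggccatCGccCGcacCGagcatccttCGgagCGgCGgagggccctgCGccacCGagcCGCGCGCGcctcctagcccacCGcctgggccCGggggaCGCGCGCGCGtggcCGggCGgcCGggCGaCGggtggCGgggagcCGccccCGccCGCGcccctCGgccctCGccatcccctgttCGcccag
There were 20 CpG in the stretch of Irs1 and 34 in that of Irs2. The median over 20901 protein-coding genes was 7 CpG, and 15% of the genes had as many as Irs1 and 1.41% as many as Irs2.

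At the width of 4 kb, the number of wide peaks was close between diets in BAT and lower in HFD than in SCD in WAT. There were 119 wide peaks of H3K9me2 in HFD BAT, against 112 in SCD BAT. H3K9me3 had 49 in HFD BAT, against 51 in SCD BAT. In WAT, H3K9me2 had 22 in HFD mice, against 53 in SCD mice, and H3K9me3 had 60 in HFD mice, against 77 in SCD mice. HFD supplied 51.5% (95% exact CI 44.9 to 58.1) of the wide peaks of both diets for H3K9me2 in BAT and 49.0% (38.9 to 59.2) for H3K9me3 in BAT. It supplied 29.3% (19.4 to 41.0) for H3K9me2 in WAT and 43.8% (35.3 to 52.5) for H3K9me3 in WAT. At a width of 3000 bp the HFD share for WAT H3K9me3 was 53.8%, on the other side of 50%. In single-copy regions alone, an alternative chosen after seeing the data, the HFD share was 43.0% (34.3 to 52.0) of 128 wide peaks for BAT H3K9me2. For BAT H3K9me3 it was 18.5% (6.30 to 38.1) of only 27 wide peaks. For all peaks of these lists the HFD share was 64.2%, 66.7%, 49.9% and 78.6% for BAT H3K9me2, BAT H3K9me3, WAT H3K9me2 and WAT H3K9me3. The intervals cover counting error only, and with 1 library per group the diets were not tested. Both SCD WAT lists held peaks down to a score of 30, and both HFD WAT lists only down to 50. Leaving out peaks that score under 50 does not change the edges of the others. The part of this difference in the WAT widths was not tested.

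**Figure D1:**
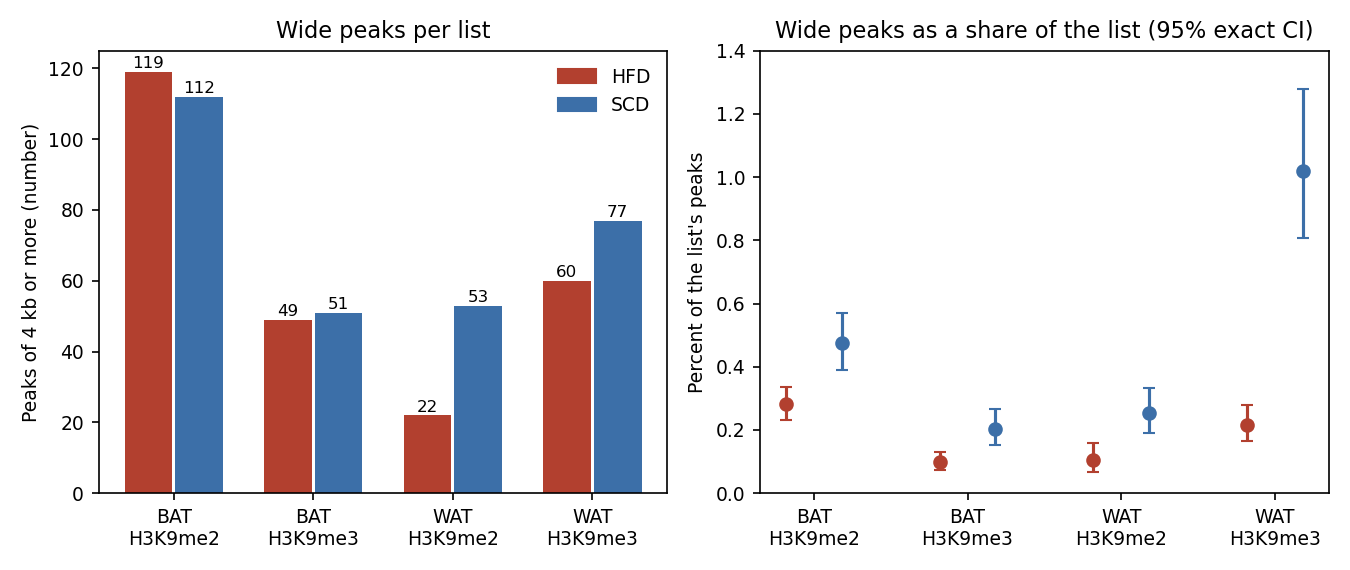
Number of wide peaks in each list (left, bars from 0) and their percent of the list's autosomal peaks at a score of at least 50 (right, points with 95% exact confidence intervals), HFD in red and SCD in blue for each tissue and mark. The HFD point lies below the SCD point in all 4 pairs on the right, and the highest is SCD WAT H3K9me3 with 1.02%.

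As a share of its list, the wide class was small in every library, and this is what the width threshold fixed. It was 0.281% of 42401 peaks in HFD BAT H3K9me2, against 0.474% of 23626 in SCD BAT H3K9me2. It was 0.0974% of 50303 in HFD BAT H3K9me3, against 0.203% of 25126 in SCD BAT H3K9me3. In WAT it was 0.106% of 20790 for HFD H3K9me2, against 0.254% of 20904 for SCD H3K9me2, and 0.217% of 27682 for HFD H3K9me3, against 1.02% of 7531 for SCD H3K9me3. The SCD WAT H3K9me3 list thus had the fewest peaks at a score of at least 50, but more wide peaks than any list except BAT H3K9me2 of either diet. The median width of the wide peaks ranged over the lists between 4890 and 5812 bp, while that of all peaks ranged between 658 and 969 bp. The widest single peak, of 29251 bp at chr9:3048283-3077533, was in the HFD BAT H3K9me2 list. At the threshold, the narrowest wide peak was 4000 bp (SCD WAT H3K9me3) and the widest peaks left out were 3999 bp (HFD BAT H3K9me2 and SCD BAT H3K9me2). Among peaks of at least 4000 bp, the lowest score inside the threshold was 50.23 and the highest outside it was 48.91.

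**Figure D2:**
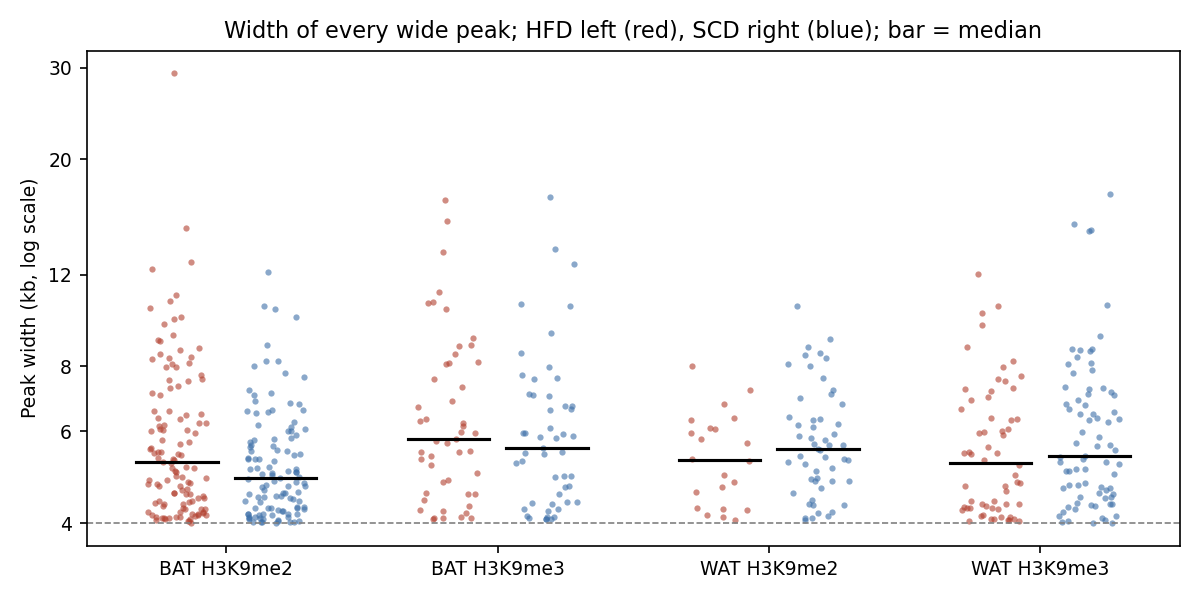
Width of each of the 543 wide peaks in kb on a log axis, by tissue and mark, with HFD on the left in red and SCD on the right in blue. Black bars are medians, the dashed line is the threshold of 4 kb, and the medians lie between 4890 and 5812 bp.

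Most wide regions were not wide in every list. A wide peak was present in 1 list only for 114 of the 227 regions (50.2%, 95% exact CI 43.5 to 56.9), and in all 8 lists for 6. The lists that held a region alone were mainly SCD BAT H3K9me2 (35 regions), HFD BAT H3K9me2 (33) and SCD WAT H3K9me3 (26), and 23 regions were wide in both diets for BAT H3K9me2 and in no other list. HFD WAT H3K9me2 held none alone. Of the lists without a wide peak at a region, some had narrower peaks there and some had none. HFD BAT H3K9me2, HFD BAT H3K9me3, SCD WAT H3K9me2 and HFD WAT H3K9me3 more often had a narrower peak than none, and in the other 4 lists it was the reverse. A peak of any width was present in all 8 lists at 39 regions (17.2%, 95% exact CI 12.5 to 22.7), against 1.85% of all 86662 merged regions, and only 7 regions had no peak in the other 7 lists. Wider regions have more room to overlap a peak, and the part of width in this share was not tested.

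A region that was wide in one list was often broken into several narrower peaks in another. In HFD BAT H3K9me3, 128 regions held narrower peaks and no wide one. These peaks covered a median of 61.5% of the region, and 99 of the 128 regions held 2 or more of them. In SCD BAT H3K9me3 there were 60 such regions, with a median of 63.2% covered and 21 with 2 or more peaks. In WAT, narrower peaks alone were found at 84 regions in HFD H3K9me2, against 124 in SCD H3K9me2, and covered a median of 42.9% in HFD and 48.2% in SCD. For H3K9me3 they were found at 93 regions in HFD WAT, against 61 in SCD WAT, and covered a median of 56.2% in HFD and 51.3% in SCD. For BAT H3K9me2 they were found at 71 regions in HFD, against 27 in SCD, and covered a median of 81.1% in HFD and 74.5% in SCD.

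**Figure D3:**
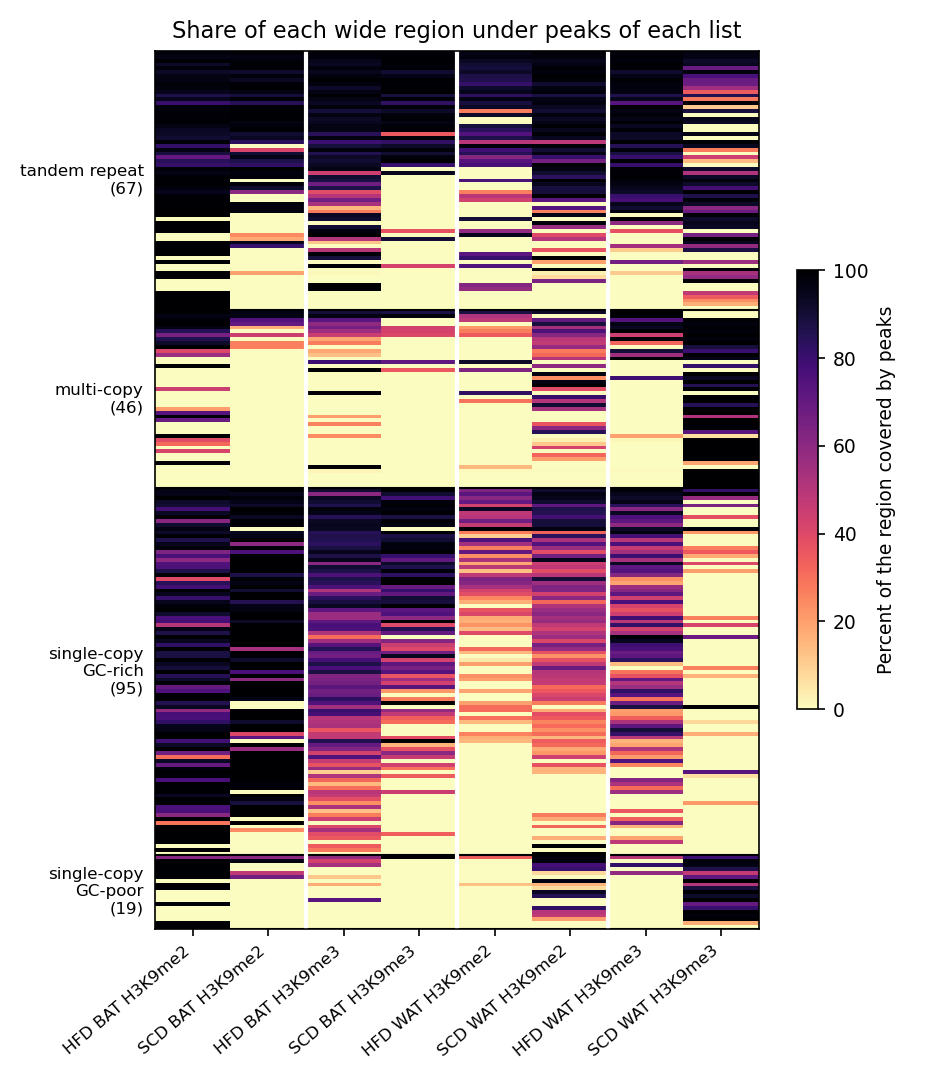
Percent of each of the 227 wide regions (rows, grouped by kind of sequence and sorted by total cover) that lay under peaks of any width in each list (columns, HFD left of SCD in each pair). Of the 67 tandem repeats at the top, between 34 (SCD BAT H3K9me3) and 58 (HFD BAT H3K9me2) hold a peak in a list. The multi-copy regions most often hold a peak in SCD WAT H3K9me3 (40 of 46). The single-copy GC-rich regions are dark in BAT and pale in SCD WAT H3K9me3.

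The overlap between diets was read in both directions. Of the HFD BAT H3K9me2 wide peaks, 36.1% had no SCD peak of any width, against 0.893% of the SCD BAT H3K9me2 wide peaks without an HFD peak. Over all peaks these shares were 62.5% for HFD and 34.2% for SCD. For BAT H3K9me3 they were 30.6% of the HFD wide peaks, against 0 of 51 SCD wide peaks, with 56.9% and 15.9% over all HFD and SCD peaks. For WAT H3K9me2 they were 18.2% of the HFD wide peaks, against 35.8% of the SCD wide peaks, with 43.2% and 45.6% over all HFD and SCD peaks. For WAT H3K9me3 they were 23.3% of the HFD wide peaks, against 50.6% of the SCD wide peaks, with 86.3% and 49.1% over all HFD and SCD peaks. In 7 of the 8 lists a wide peak thus lacked a partner in the other diet less often than a peak of that list at large. The exception was SCD WAT H3K9me3, where both shares were near 50%. A partner needed an overlap of 1 bp only, which a wider peak meets more easily, and the part of width was not tested.

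The wide regions differed from peak regions at large in the reference sequence beneath them. Every 31-base word of each region was counted on both strands over the whole assembly, and a word at several places is not by itself a read at several places, since reads are longer. Of the wide regions, 109 (48.0%, 95% exact CI 41.4 to 54.7) had at least 50% of their words at 2 or more places, against 37.5% of all merged regions. In the 4 kb around the centre, at least 20% of the words recurred within the window, which is the sign of a tandem repeat, for 26.9% of the wide regions (21.2 to 33.1), against 1.94% of all. Assembly gaps lay within 100 kb of 22.9% (17.6 to 28.9), against 1.86% of all. Median GC in the same window was 57.6% in wide regions and 46.8% in regions without a wide peak. Reads with several matches had been discarded by the authors, and the part of copy number and of gaps in the width of these peaks was not tested.

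The 227 regions were split by these words, after the values had been seen, into 67 tandem repeats, 46 multi-copy regions that were not tandem, 95 single-copy regions with a GC of at least 50% and 19 single-copy regions below that. The kinds were unevenly spread over the lists. Tandem repeats were wide in 45 regions of HFD BAT H3K9me2, against 36 of SCD BAT H3K9me2, and in 35 of HFD BAT H3K9me3, against 26 of SCD BAT H3K9me3. They were wide in 19 regions of HFD WAT H3K9me2, against 34 of SCD WAT H3K9me2, and in 34 of HFD WAT H3K9me3, against 25 of SCD WAT H3K9me3. Multi-copy regions were wide in 15 cases in HFD BAT H3K9me2, against 1 in SCD BAT H3K9me2, and in 5 in HFD BAT H3K9me3, against 2 in SCD BAT H3K9me3. In WAT the order was the other way, with 1 in HFD H3K9me2, against 5 in SCD H3K9me2, and 10 in HFD H3K9me3, against 33 in SCD H3K9me3. Single-copy GC-rich regions were wide in 44 cases in HFD BAT H3K9me2, against 70 in SCD BAT H3K9me2, and in no more than 21 in any other list. A peak of any width covered 93 of these 95 in HFD BAT H3K9me2, against 82 in SCD BAT H3K9me2, and 81 of them in HFD WAT H3K9me3, against 23 in SCD WAT H3K9me3.

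**Figure D4:**
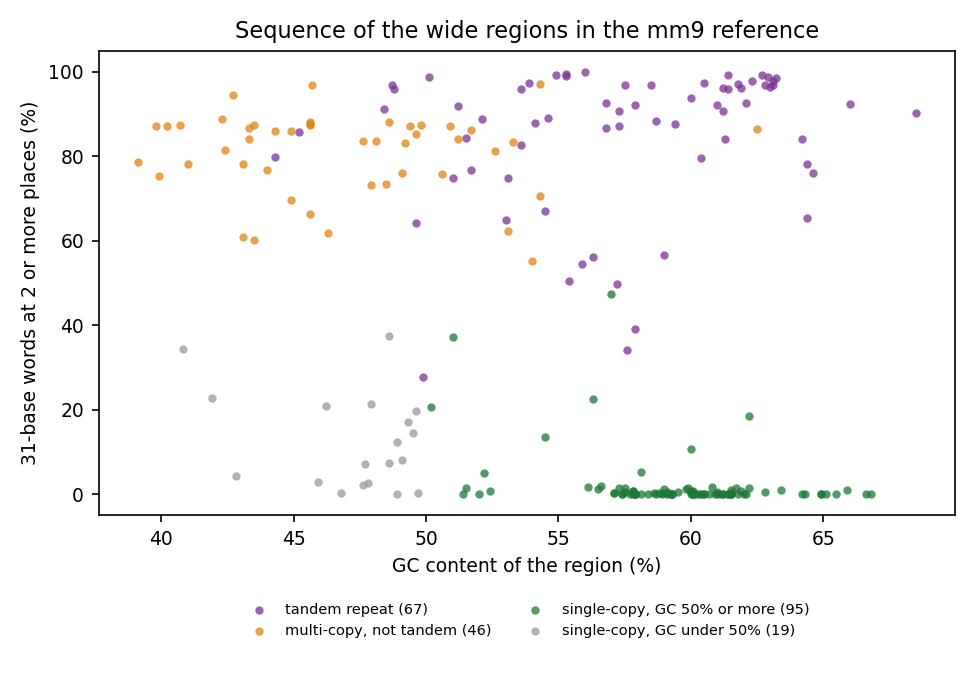
GC content of each wide region (horizontal axis, percent) against the percent of its 31-base words found at 2 or more places in the mm9 reference (vertical axis), coloured by the 4 kinds of sequence. The 95 single-copy GC-rich regions (green) lie along the bottom between 50.2% and 66.8% GC, apart from the tandem (purple) and multi-copy (orange) regions above.

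Among the tandem repeats, 13 regions on 9 chromosomes had a period between 201 and 212 bases and a GC between 57.5% and 63.1%. Their words had medians between 354 and 2884 copies in the assembly, and 12 of the 13 lay between protein-coding genes. All 13 held a peak in 7 lists, and 8 held one in SCD WAT H3K9me3 too. The region at chr3:6297272-6307865 held 48 copies of the word that sets the phase of the unit shown above, and its wide peaks spanned 10372, 10305, 6089 and 10447 bp in the HFD lists of BAT H3K9me2, BAT H3K9me3, WAT H3K9me2 and WAT H3K9me3. In the SCD lists, in the same order, they spanned 10469, 10440, 10441 and 7289 bp. At chr10:27538001-27545809, between Lama2 and Ptprk, 7 lists held peaks of between 7202 and 7766 bp while SCD WAT H3K9me3 held none. Units of this length are known from the promoters of mouse L1 elements, and the regions were not assigned to a repeat family here.

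Some tandem regions lay in genes with repeats in the coding sequence, but the annotated coding share of the regions differed. It was 35.5% at Flg, 31.4% at Muc19, and 0 and 18.3% at the 2 regions of Flg2. Flg encodes filaggrin, a protein of the outer epidermis, and its region at chr3:93086468-93097204 had a period of 750 bases. Its wide peaks spanned between 7992 and 10588 bp in the 4 HFD lists, against between 7886 and 8086 bp in the 4 SCD lists. Muc19, a mucin gene, had a period of 489 bases at chr15:91736628-91741113 and was wide in all 8 lists, between 4073 and 4379 bp. The Ahnak2 region was wide in 6 lists. It was narrower in HFD BAT H3K9me2 and in SCD WAT H3K9me3, and all of its bases were coding. The regions of Flg2, a relative of Flg with a period of 234 bases, were wide only in HFD BAT H3K9me2 and SCD WAT H3K9me3.

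A further 22 tandem regions had periods of up to 100 bases, and 12 of them touched a protein-coding gene or its promoter. At Thada, named for its link to thyroid adenoma, the region at chr17:84858304-84863835 had a period of 56 bases and gave the highest-scoring wide peak of HFD BAT H3K9me2 (score 3005), where the SCD BAT H3K9me2 score was 486. It was wide in 6 lists and absent from HFD WAT H3K9me2 and SCD BAT H3K9me3. The Stam2 region was wide in 6 lists and was absent from HFD WAT H3K9me2. Dusp5, which encodes a phosphatase that turns off ERK, had a wide region at chr19:53597048-53601214, 2385 bp from a start site, with a period of 19 bases. It was wide only in HFD BAT H3K9me2, where the score was 572, and the single other list with a peak was SCD WAT H3K9me3 (score 71.8, 23.7% covered).

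Of the 21 tandem regions with periods between 1098 and 7614 bases, some held annotated genes for small RNAs. The 5S rRNA genes on chromosome 8 lie 1704 bp apart (median), and 39 of the 47 annotated there fell in wide regions. Peaks of any width covered 70.4% of the run of 87.8 kb in HFD BAT H3K9me2, against 67.3% in SCD BAT H3K9me2, and 96.5% in HFD BAT H3K9me3, against 73.9% in SCD BAT H3K9me3. In WAT they covered 82.8% of it for HFD H3K9me2, against 77.2% for SCD H3K9me2, and 72.3% for HFD H3K9me3, against 40.5% for SCD H3K9me3.

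A second array lay at chr6:47602716-47716505 between Ezh2, which encodes the H3K27 methyltransferase of PRC2, and Pdia4, an enzyme of protein folding. RefSeq for the assembly GRCm38 places the gene Rn4.5s between the same neighbours. The array held 6 wide regions, of which 4 had periods between 4325 and 4361 bases. Peaks covered 53.6% of it in HFD BAT H3K9me3, against 13.5% in SCD BAT H3K9me3, and 24.5% in HFD BAT H3K9me2, against 3.65% in SCD BAT H3K9me2. They covered 35.6% in HFD WAT H3K9me2 and 7.43% in HFD WAT H3K9me3, against 0 in both SCD WAT lists. Cover was higher in the HFD list of all 4 pairs. All 6 regions were wide in HFD BAT H3K9me3, and wide peaks of that list set both edges of the array. The selection itself thus raises the HFD cover, and diet was not tested.

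The region at chr17:39979648-39986055, over the non-coding gene AY036118, was not repeated in the assembly and gave the highest score of the wide peaks in both HFD WAT lists (3100 each), where the SCD scores were 115 for H3K9me2 and 109 for H3K9me3. It was wide in 6 lists and absent from SCD BAT H3K9me2 and SCD BAT H3K9me3, while the HFD BAT scores were 1363 for H3K9me2 and 3100 for H3K9me3. A score of 3100 recurs in several lists, and scores are not scaled between libraries. Copies were counted in the assembly only, so any copies of this region that it leaves out were not seen.

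**Figure D5:**
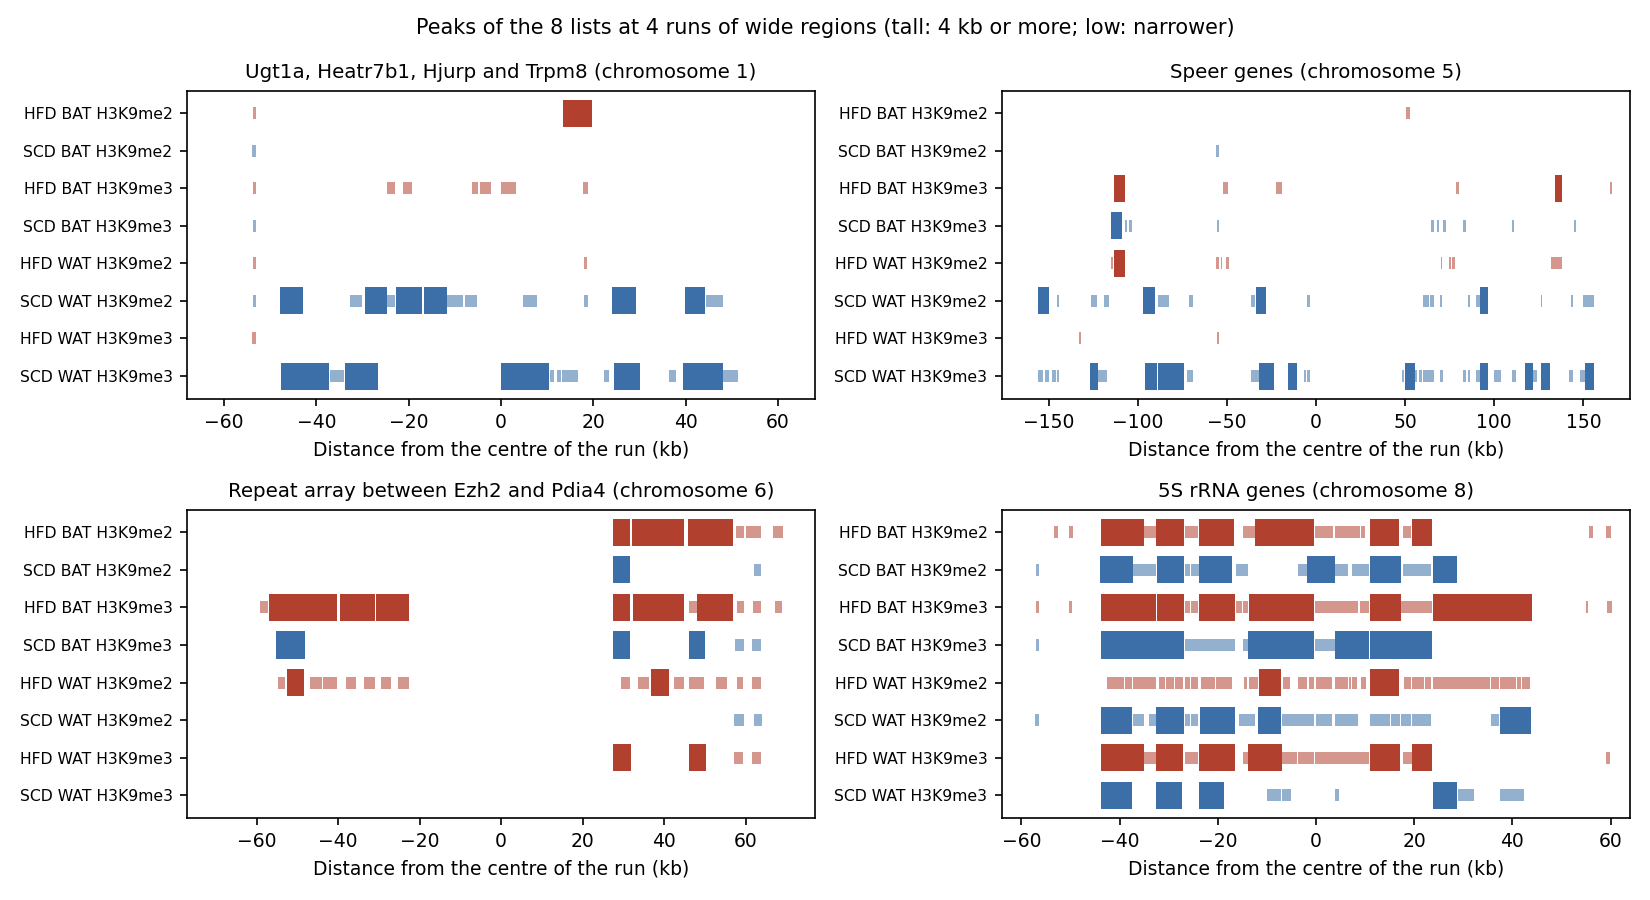
Peaks of each list (rows, HFD in red above SCD in blue for each tissue and mark) along 4 runs of neighbouring wide regions, as distance in kb from the centre of the run. Tall blocks are wide peaks and low blocks narrower ones; the runs on chromosomes 1 and 5 are filled mainly in the SCD WAT rows, the array on chromosome 6 mainly in HFD rows, and the 5S genes in all 8 rows.

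Wide regions also followed each other. There were 14 runs of 3 or more regions less than 100 kb apart, with 71 regions in all. The run at chr1:90107620-90203602 held 9 regions over the shared end of the Ugt1a genes, whose enzymes join glucuronic acid to bilirubin and drugs, over Heatr7b1, over Hjurp, the chaperone that loads the centromeric histone, and over Trpm8, a cold-sensing channel. Its words were single-copy. Peaks covered 0.851% of the run in HFD WAT H3K9me2, against 50.7% in SCD WAT H3K9me2, and 0 in HFD WAT H3K9me3, against 55% in SCD WAT H3K9me3. In BAT they covered 6.59% in HFD H3K9me2 and 12.0% in HFD H3K9me3, against 0 in both SCD lists. Wide peaks of the SCD WAT lists set both edges of this run, so the selection raises the SCD WAT cover.

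The run at chr5:14910352-15222030 held 13 regions at Speer genes, a family expressed in testis, and at Gm10354 and Gm17019. Peaks covered 6.47% of it in HFD WAT H3K9me2, against 19.6% in SCD WAT H3K9me2, and 0.857% in HFD WAT H3K9me3, against 37.6% in SCD WAT H3K9me3. The region at chr5:14951223-14959072 of this run was wide in HFD WAT H3K9me2 and in BAT H3K9me3 of both diets and had no peak in SCD WAT. The run at chr4:146709155-146807661, beside Gm13151, was covered to 3.70% in HFD WAT H3K9me3, against 50.2% in SCD WAT H3K9me3, and to 9.23% in HFD BAT H3K9me2, against 0.940% in SCD BAT H3K9me2. Wide peaks of the SCD WAT lists set the edges of both runs, so the selection raises the SCD WAT cover. On chromosome 7 the SNORD116 array at chr7:67002213-67016754, with 6 annotated copies of the gene shown above, was covered to 64.4% by SCD WAT H3K9me2 and to 100% by SCD WAT H3K9me3, and no HFD or BAT list held a peak there. The SCD WAT H3K9me3 wide peak gave this region its edges, so the 100% was set by the selection. A smaller region over 2 further copies, at chr7:67026130-67030227, was wide only in HFD BAT H3K9me2, while HFD WAT H3K9me3 peaks covered 59.7% of it, against 94.7% in SCD WAT H3K9me3.

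Of the 93 regions that were wide in an SCD WAT list, 38 had no peak in HFD WAT for either mark, and 24 of these had none in BAT either. Of the 38, 29 lay in the runs of neighbouring regions and only 13 were single-copy. The median GC of the 38 was 45.4%. Of the 61 regions that were wide in an HFD WAT list, 6 had no peak in SCD WAT. Over all peaks of the SCD WAT lists, 45.6% for H3K9me2 and 49.1% for H3K9me3 had no HFD peak of that mark. Over all peaks of the HFD WAT lists, 43.2% for H3K9me2 and 86.3% for H3K9me3 had no SCD peak of that mark. The 38 of 93 and the 6 of 61 count regions without a peak of either mark, which is a stricter condition. The matching share over all regions was not computed. The SCD WAT lists were called down to a score of 30, though peaks below 50 were left out here, and a region without a peak may hold a signal below what its library could show.

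Most single-copy GC-rich regions lay at genes. Of the 95, 86 touched a protein-coding gene or its promoter, and a median of 43.8% of the region was exon. Of all merged regions, 51.6% touched a protein-coding gene and 24.6% a promoter, at a median width of 840 bp, against 4784 bp here. Such shares grow with width, and this kind was chosen on GC. The part of width and GC in the 86 was not tested. In BAT H3K9me2, 85 of the 95 were wide in at least 1 diet. They were wide in both diets at 29, wide in SCD and narrower in HFD at 41, wide in HFD and narrower in SCD at 6, and wide in HFD with no SCD peak at 9. None was wide in SCD without an HFD peak. HFD BAT H3K9me2 peaks still covered a median of 93.1% of these regions, against 99.3% for SCD BAT H3K9me2. Wide peaks set the edges of the regions, and more of these regions were wide in SCD (70) than in HFD (44). The selection itself thus raises the SCD median, and diet was not tested.

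At Irs1 the region of 5332 bp was wide only in SCD BAT H3K9me2. HFD BAT H3K9me2 peaks covered 87.7% of it, against 100% in SCD BAT H3K9me2. That 100% was set by the selection, since the SCD BAT H3K9me2 wide peak gave the region its edges. HFD WAT peaks covered 15% for H3K9me2 and 68.6% for H3K9me3, against 37.7% for H3K9me2 and 0 for H3K9me3 in SCD WAT. Irs2 was wide in BAT H3K9me2 of both diets, with 5480 bp in HFD and 5790 bp in SCD, and in BAT H3K9me3 of SCD mice (5844 bp), where HFD BAT H3K9me3 peaks covered 95.4%. Foxo3, a transcription factor that insulin signaling restrains, had a region of 4811 bp that was wide only in SCD BAT H3K9me2, where HFD BAT H3K9me2 peaks covered 86.4%. This region too took its edges from the SCD BAT H3K9me2 wide peak. Foxo3 was named after its values were seen.

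Plec, which encodes the cytoskeletal linker plectin, had the longest single-copy GC-rich region, 12260 bp with 86.6% exon, and was wide in 7 lists. It was covered to 63.3% by narrower peaks in HFD WAT H3K9me2, against 91.6% under a wide peak in SCD WAT H3K9me2. Jag2, which encodes a Notch ligand, was wide in the 4 BAT lists, with 8596 bp in HFD H3K9me2, against 8803 bp in SCD H3K9me2, and 4577 bp in HFD H3K9me3, against 5965 bp in SCD H3K9me3. All 3 Celsr genes, which encode adhesion receptors of planar cell polarity, had a wide region, and Celsr1 had 2. Each of these 4 regions was wide in SCD BAT H3K9me2, and of these only Celsr2 was also wide in HFD BAT H3K9me2 (4555 bp, against 6061 bp in SCD). The Celsr family was likewise picked after its values were seen. Mn1, a gene of transcriptional control, was wide in 5 lists and narrower in HFD BAT H3K9me2 and HFD WAT H3K9me3.

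By position, 89 of the 227 regions (39.2%, 95% exact CI 32.8 to 45.9) lay within 3 kb of a protein-coding start site and 133 (58.6%, 51.9 to 65.1) touched a protein-coding gene. These shares grow with width, so the midpoints were compared as well. The midpoint lay at a promoter in 29.1% (23.3 to 35.4), against 23.4% of all merged regions, within a gene in 55.1% (48.3 to 61.7), against 49.9%, and in an exon in 26.0% (20.4 to 32.2), against 18.4%.

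The listed genes of fat metabolism had no wide region, and wide regions were rare over all genes too. Of 21418 autosomal protein-coding genes, 162 (0.756%) had a wide region at the promoter or in the body. None did among 22 genes of white adipocytes and adipogenesis, 24 of brown adipocytes and thermogenesis, 16 of lipogenesis or 21 of lipolysis and fatty acid oxidation. Nor did any of 25 H3K9 methyltransferases, demethylases and readers, 30 imprinted genes, a list that does not hold SNORD116, or 13 housekeeping genes. In insulin and mTOR signaling 2 of 20 did (Irs1 and Irs2), in MAPK signaling 1 of 47 (Dusp5) and in inflammation and macrophages 1 of 23 (Fcgr3). The list of keratin, filaggrin and mucin genes had 7 of 119 annotated entries, all named Flg, Flg2 or Muc19, since the annotation splits Flg and Muc19 over several entries. Among zinc finger genes 3 of 424 did, and among olfactory and vomeronasal receptor genes 3 of 1436. Of 287 annotated rRNA genes 40 did, but 39 of these were the 5S genes of the 1 array on chromosome 8. Hox, histone, collagen and clustered protocadherin genes had none, and the lists were not tested. Fcgr3, an Fc receptor of macrophages, had 2 wide regions. The larger, 2682 bp from its start, was a tandem repeat at chr1:172997748-173014992 with a period of 7614 bases and was wide in all 8 lists, between 4689 and 9654 bp in the HFD lists, against between 4817 and 17135 bp in the SCD lists.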

How the data were processed

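Peak lists from ChIP-seq of both marks, tissues and diets were used. The authors aligned reads to mm9 (Bowtie2 2.4.2) after FastQC and Trim Galore, dropped those with several matches and called peaks with MACS2, whose mode is not given in the sources used here. The deposited lists hold 5 columns, of which the last is the authors' score, taken here as a negative log10 p-value multiplied by 10. Read depth is unknown, and inputs were not used here.

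Groups came from the labels. Genes were those of GENCODE vM1, and a promoter was 3 kb on either side of a start site. Words of 31 bases were counted over NCBIM37. Edges of regions and runs came from the wide peaks, so the selection raises the cover of the lists whose wide peaks set them. Exact (Clopper-Pearson) 95% intervals cover counting error only, and no p-value is given because there was 1 library per group. Named regions followed a rule: the 10 widest, those wide in at least 4 lists, the 2 widest of each list without a peak of the other diet, those at start sites of listed genes, and the highest score per list. The text prints a part of them, and regions named for a run, a repeat or a gene family outside this rule were chosen after their values were seen. The members and lists were chosen with earlier results of these data known. Alternatives changed the width, score, gap, number of peaks, chromosomes, merging, overlap and promoter. Python 3.11.15, NumPy 2.4.6, SciPy 1.17.1, numba 0.67.0 and matplotlib 3.10.9 were used, and overlaps were checked against bedtools 2.31.1.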

Additional observations from a re-analysis of the deposited data

Results flagged for a closer look

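The difference in the number of H3K9me2 wide peaks between HFD and SCD had opposite signs in the 2 tissues, which was not tested. HFD minus SCD was 7 in BAT (119 in HFD and 112 in SCD) and -31 in WAT (22 in HFD and 53 in SCD), each from 1 library per diet. The SCD WAT list held peaks down to a score of 30 and the HFD WAT list down to 50. In single-copy regions alone, the HFD share in BAT was 43.0%, so the BAT difference changed direction there.

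Outside the autosomes, which the selection left out, the 8 lists held 58 peaks of at least 4 kb, of which 32 were on X, 0 on Y and 26 on unplaced sequence. No input list was at hand as a control. HFD WAT H3K9me2 had none, against 10 in SCD WAT H3K9me2 (8 on X and 2 unplaced).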

How the results depend on the processing

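The number of merged regions depended on the width, being 567 at 3000 bp and 124 at 5000 bp, and was 500 when peaks of a list were joined across gaps of up to 500 bp. With these joined peaks, 61.2% were wide in 1 list only, 53.6% lay at a promoter and 73.6% touched a gene body, and the HFD share in BAT H3K9me2 was 69.6%. At 3000 bp, 49.9% lay at a promoter, 74.1% touched a gene body and the HFD share in WAT H3K9me3 was 53.8%, on the other side of 50%. The share with a peak in all 8 lists was 6.42% at a score of at least 80, 11.2% with equal numbers of peaks, 6.61% where 50% of the region had to be covered and 23.8% with narrower peaks of every score. With equal numbers the HFD share in BAT H3K9me2 was 58.7%. The promoter share was 30.8% for 1 kb on either side and 23.3% with 1 start site per gene. In single-copy regions alone, an alternative chosen after seeing the data, there were 114 regions, 57.9% were wide in 1 list only, 56.1% lay at a promoter and 82.5% touched a gene body, and the HFD share was 43.0% for BAT H3K9me2, 18.5% for BAT H3K9me3 and 13.3% for WAT H3K9me2. The cause was not tested. The other 52 values stayed within the interval (or 1.5 times, for the count) of the reported value. The HFD share in WAT H3K9me2 stayed below 50% under every alternative run, but no alternative changed the lowest score at which a list was called. No paired analysis was possible because each group had 1 library, and no library could be left out. Depth is unknown, so a missing peak is a peak not detected.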

Other observations

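The wide regions differed in number between chromosomes. Chromosome 17 held 26 of 227 (11.5%), where all merged regions had 4.58%, and chromosome 5 held 26 (11.5%), where all had 7.47%. On chromosome 17, 9 of the 26 were in the run at chr17:13385512-13648109, which lies at Smok2b and Gm9880. Peaks covered 17.4% of that run in HFD WAT H3K9me3, against 48.9% in SCD WAT H3K9me3, and 23.1% in HFD BAT H3K9me2, against 1.70% in SCD BAT H3K9me2. Wide peaks of the WAT H3K9me3 lists set its edges, so the selection raises the cover of these lists.

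At the assembled ends next to the centromeres, the run at chr3:3000024-3033643 was covered to 86.7% in HFD BAT H3K9me2, against 44.9% in SCD BAT H3K9me2, and to 22.9% in HFD WAT H3K9me3, against 49.6% in SCD WAT H3K9me3. The run at chr17:3006381-3083371 was covered to 44.2% in HFD BAT H3K9me2, against 16.9% in SCD BAT H3K9me2, and to 2.0% in HFD WAT H3K9me3, against 39.0% in SCD WAT H3K9me3. Wide peaks of HFD BAT H3K9me2 and SCD WAT H3K9me3 set the edges of these runs, so the selection raises the cover of both lists. Dux, which encodes a transcription factor of the early embryo, had a wide region with a period of 4885 bases at chr10:57683320-57691471. It was wide in 5 lists and narrower in HFD WAT H3K9me2, while SCD BAT had no peak of either mark there.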
